A study of Mus musculus with 12 samples.

Results

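The heart takes up fatty acids from circulating lipoproteins and albumin, activates them to acyl-CoA esters, carries them into mitochondria on carnitine and shortens them by beta-oxidation. The electrons released pass through the electron transfer flavoproteins to the respiratory chain. The fetal heart relies mostly on glucose and lactate, and the switch to fatty acids as the main fuel takes place after birth under nuclear receptors of the PPAR and ERR families and their coactivators. The 44 genes described here were chosen by symbol from that pathway and cover uptake, lipolysis and activation, the carnitine shuttle, control by malonyl-CoA, the beta-oxidation spiral, auxiliary enzymes for unsaturated fatty acids, electron transfer, ketone use, thioesterases and uncoupling proteins, and regulators. All 44 were present among the 24062 symbols of the count table, and all 44 passed the filter on low counts in each comparison.

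RNA was sequenced from whole mouse hearts in 4 groups of 3 mice. Adult KI/KI hearts were homozygous for the Lemd2 c.T38>G substitution, carried in every cell, and were compared with adult WT hearts, both at 2 months of age. P1 cKO hearts lacked the floxed first exon of Lemd2 in cells that express Cre from the Myh6 promoter, that is in cardiomyocytes, while other heart cells kept the gene. They were compared with P1 floxed hearts without Cre, both on postnatal day 1. Lemd2 encodes an inner nuclear membrane protein with a LEM domain. The adult and newborn hearts came from different lines, so age, line and any difference in handling between them cannot be told apart in the comparison of adult WT with P1 floxed hearts. Both mutant comparisons share their control libraries with that comparison, and values are therefore given side by side without a test of likeness.

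The libraries held 37063669 to 44789753 counts each, so that 3 counts corresponded to between 0.0599 and 0.0965 CPM, counts scaled to one common library size. The CPM values are adjusted by trimmed mean normalisation across all 12 libraries. Lemd2 was at 24.3, 24.97 and 25.4 CPM in the floxed hearts and at 6.59, 13.1 and 11.3 CPM in the cKO hearts. Among the adults, KI/KI levels of Lemd2 spanned 24.8 to 25.6 CPM and WT levels spanned 32.0 to 34.8 CPM. These ranges did not overlap, although no gene was called in that comparison. The paper reports a modest reduction of this mRNA in KI/KI mice. The lower level does not check the KI/KI genotype, because the allele is a substitution. Every heart held high levels of 8 cardiomyocyte markers, summed to between 34832 and 86768 CPM. WT replicate 3 stood apart from the other WT hearts. Its 6 white adipocyte markers were summed to 74.2 CPM against 10.1 and 3.85 CPM, and 5 lung markers to 99.8 CPM against 0.514 and 0.5496 CPM. The adipocyte markers were also at 17.6, 32.0 and 7.93 CPM in KI/KI replicates 4 to 6. In the floxed and cKO hearts they were at most 1.35 and 0.438 CPM. The lung markers were also at 27.4 and 42.7 CPM in floxed replicates 1 and 2, 34.9 CPM in KI/KI replicate 4 and 19.3 CPM in cKO replicate 4, and at most 5.03 CPM in the other 7 hearts. cKO replicate 4 had a mean log2 CPM of -3.92 over 4 Y-linked genes, against 5.56 to 6.25 in the other 11 hearts. Xist, which is expressed from the inactive X chromosome of females, was at 612 CPM in that heart. In the other 11 hearts Xist was at most 2.02 CPM. The labels do not give sex. In whole hearts, fewer cells of a type and less RNA per cell cannot be told apart.

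**Figure D1:**
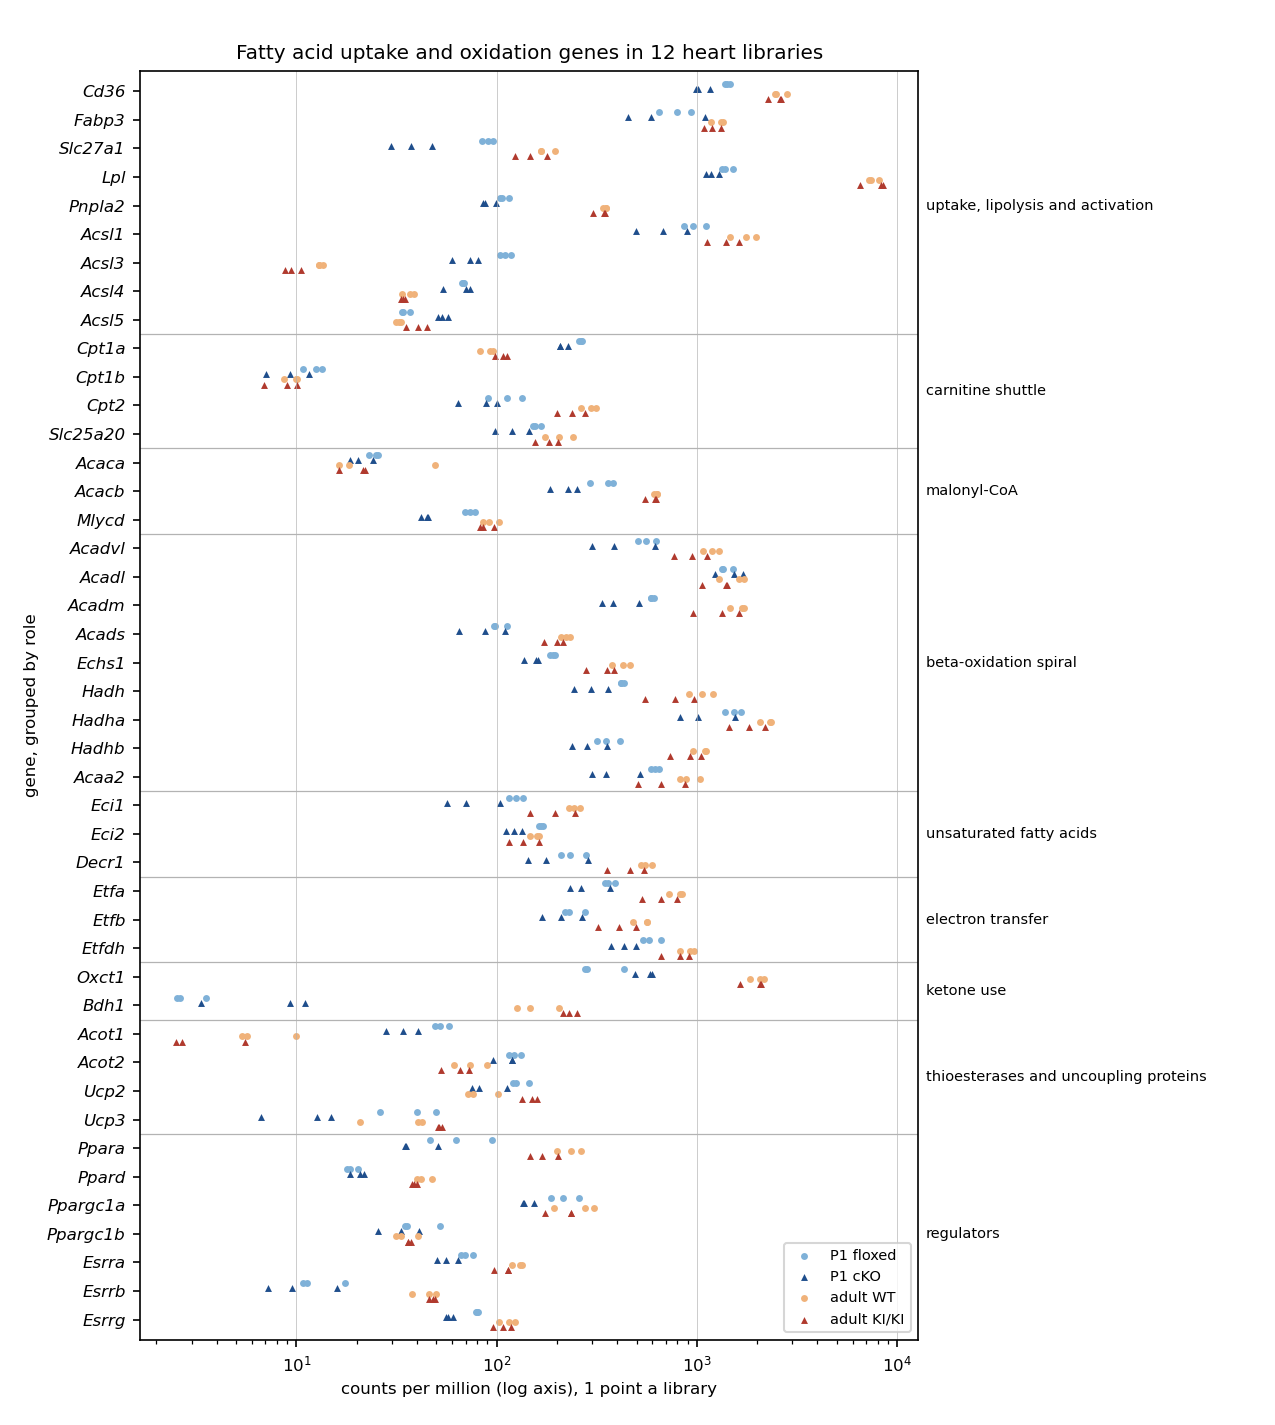
Level of each of the 44 genes in each of the 12 hearts, in CPM on a log axis, with circles for the control groups and triangles for the mutant groups. Most genes of the beta-oxidation spiral lay higher in the adult than in the newborn hearts, whereas Acsl3, Cpt1a and Acot1 lay lower.

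The first comparison asked how these genes differed between the newborn and the adult control heart. Levels of 30 of the 44 genes were higher in adult WT than in P1 floxed hearts and levels of 7 were lower, with calls made where the quasi-likelihood test of edgeR, adjusted by Benjamini-Hochberg over 15183 genes, gave a value under 0.05. Among all genes tested, 31.8% were called higher and 33.4% lower. With a fold change above 2 also required, 17 members were higher and 3 lower, against 13.4% and 13.9% of all genes. The median log2 fold change was 0.84 over the members and -0.042 over all genes tested. For all 37 genes called, the 3 WT and the 3 floxed hearts did not overlap, and the adjusted p lay between 2.41e-07 and 0.0271. The share of all genes without overlap was not counted in this comparison, so the lack of overlap does not set the members apart. Summed levels of some cell type markers differed between the same hearts without overlap. The 8 cardiomyocyte markers were summed to 75480.2 to 86768 CPM in WT and 43870 to 49435 CPM in floxed hearts, 6 fibroblast markers to 1624 to 1975 and 3876 to 4417 CPM, and 5 proliferation markers to 28.6 to 57.4 and 259 to 369 CPM. The sums of 6 endothelial markers overlapped, at 1119 to 1268 CPM in WT and 1089 to 1175 CPM in floxed hearts. Of the single fibroblast markers 3 had a log2 fold change above 0 and 3 below. Of the cardiomyocyte markers 7 lay above 0 and 1 below, and all 5 proliferation markers lay below. The part of cell composition in the age differences was not tested. In the sentences below, values are CPM in replicates 1 to 3 of each group, and fold changes are on the log2 scale with their standard error (SE).

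Genes of uptake and activation moved in both directions. Lpl, the lipase that frees fatty acids from lipoproteins in the capillaries, rose from 1329.8, 1387 and 1507 CPM in the floxed hearts to 7394, 8083 and 7276 CPM in the WT hearts, a log2 fold change of 2.42 ± 0.098. Pnpla2, the lipase that opens the hydrolysis of stored triglyceride, rose from 115, 104 and 107 to 352, 341 and 351 CPM, by 1.67 ± 0.07. The transporter gene Slc27a1 rose from 95.7, 84.9 and 90.8 to 196, 167 and 166 CPM, by 0.96 ± 0.085. These 3 genes separated the ages widely, with the lowest adult value well above the highest newborn value. Cd36, the main fatty acid receptor of the cardiomyocyte membrane, rose from 1472, 1385 and 1411 to 2819, 2452 and 2493 CPM, by 0.86 ± 0.086. Fabp3, which binds fatty acids in the cytosol, rose from 795, 647 and 935 to 1346, 1319 and 1179 CPM, by 0.69 ± 0.13. Per kilobase of transcript, Lpl and Fabp3 were the most abundant members in adult WT hearts, at mean levels of 1843 and 1557 CPM per kilobase. In the floxed hearts Fabp3 was the most abundant, at 963 CPM per kilobase, followed by Acadl at 731.

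The acyl-CoA synthetases, which activate long-chain fatty acids, did not move together. Acsl1, the main heart isoform, rose from 953, 860.5 and 1114 to 1976, 1765 and 1469.9 CPM, by 0.82 ± 0.13. Acsl3 fell from 118, 104 and 110.5 to 12.9, 12.9 and 13.6 CPM, a log2 fold change of -3.08 ± 0.082 and the largest decrease among the 44 genes. Acsl4 fell from 67.4, 68.4 and 68.3 to 38.7, 33.9 and 36.99 CPM, by a log2 fold change of -0.90 ± 0.072. Acsl5, at 34.2, 33.5 and 36.7 CPM in floxed and 32.4, 31.5 and 33.4 CPM in WT hearts, did not pass the threshold (adjusted p = 0.238), although its groups did not overlap. Acsl1 made up 81.9 ± 1.63% (SD, n = 3) of the counts of these 4 genes in the floxed hearts and 95.4 ± 0.722% in the WT hearts. The difference of 13.5 percentage points had a two-sided exact permutation p of 0.1, the smallest that 3 against 3 hearts can give.

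In the carnitine shuttle the isoforms of the outer membrane enzyme differed from the later steps. Cpt1a, which makes acylcarnitine and is the liver-type isoform, fell from 267, 262 and 257 to 92.9, 82.4 and 95.6 CPM, a log2 fold change of -1.54 ± 0.078. Cpt2, which returns the acyl group to CoA inside the mitochondrion, rose from 112, 90.7 and 134 to 312, 295 and 265 CPM, by 1.37 ± 0.14. Slc25a20, the carrier that exchanges acylcarnitine for carnitine, rose from 155, 151 and 166 to 242, 204 and 175 CPM, by 0.39 ± 0.11, and had adjusted p values of 0.0515 and 0.0517 without floxed replicate 1 or 2. Cpt1b, the muscle isoform, was listed at only 12.6, 10.7 and 13.5 CPM in floxed and 9.90, 10.04 and 8.62 CPM in WT hearts, a log2 fold change of -0.37 ± 0.12. Its call was lost (adjusted p between 0.0531 and 0.111) when WT replicate 1, 2 or 3 or floxed replicate 1 or 3 was left out. Of its annotated exon bases, 81.4% are shared with the read-through transcript ChkbCpt1b, whose row was at 0 in every library. Reads from shared bases may not have been assigned to either gene, so the level of Cpt1b and its share with Cpt1a cannot be read as transcript abundance. That share of the counts was 4.47 ± 0.519% in floxed and 9.59 ± 1.30% in WT hearts (exact permutation p = 0.1).

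Malonyl-CoA blocks entry at the carnitine step. Acacb, the mitochondrial acetyl-CoA carboxylase that makes it, rose from 360.5, 292 and 383 to 633, 633 and 609 CPM, by 0.85 ± 0.11. Mlycd, the decarboxylase that removes it, rose from 77.6, 73.2 and 69.7 to 103, 85.7 and 91.4 CPM, by 0.34 ± 0.084. Both the maker and the remover were thus higher in the adult hearts. Acaca, the cytosolic carboxylase of fatty acid synthesis, was at 25.003, 23.03 and 25.5 CPM in floxed and 18.2, 16.3 and 49.3 CPM in WT hearts (adjusted p = 0.698). Its high value came from WT replicate 3, the WT heart with the highest adipocyte and lung markers. Without that heart 3 further members passed the threshold, namely Acaca, Acadl and Ppargc1a. The log2 fold change of Acaca was 0.20 with that heart and -0.49 without it (adjusted p = 0.00558).

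Of the 9 genes of the beta-oxidation spiral, 8 were higher in the adult hearts and 6 of these by more than 2-fold. Acadm, the medium-chain acyl-CoA dehydrogenase, rose from 590.5, 589 and 608 to 1689, 1729 and 1471 CPM, by 1.44 ± 0.084. Hadhb, the thiolase subunit of the trifunctional protein, rose from 352, 318 and 415 to 1107, 1104 and 958 CPM, by 1.54 ± 0.11. Its partner subunit gene Hadha, which is transcribed away from Hadhb on chromosome 5 (Hadha at chr5:30118304-30155162 and Hadhb at chr5:30155248-30184593, GRCm38), rose from 1536, 1388 and 1655 to 2341, 2308 and 2056 CPM, by only 0.54 ± 0.096. The estimated increase was thus larger for Hadhb than for Hadha, and that difference was not tested. Hadh, the short-chain hydroxyacyl-CoA dehydrogenase, rose from 419.7, 420.1 and 432 to 1210.4, 1065 and 911 CPM, by 1.32 ± 0.10. Echs1, the short-chain enoyl-CoA hydratase, rose from 191, 195 and 185 to 426, 461 and 377 CPM, by 1.14 ± 0.083. Acads, the short-chain dehydrogenase, rose from 96.8, 97.9 and 113 to 222, 232 and 209 CPM, by 1.10 ± 0.082. Acadvl, the very-long-chain dehydrogenase, which shares 42.9% of its exon bases with Dvl2, rose from 556, 509 and 628 to 1296, 1197 and 1075 CPM, by 1.07 ± 0.11. Acaa2, the mitochondrial thiolase, rose from 616, 587 and 647 to 1034, 887 and 822 CPM, by 0.56 ± 0.096. Acadl, the long-chain dehydrogenase, was already at 1358, 1328 and 1518 CPM in the floxed hearts against 1715, 1625 and 1295 CPM in the WT hearts, and the groups overlapped (adjusted p = 0.338).

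Most auxiliary and electron transfer genes were also higher in the adult. Decr1, the dienoyl-CoA reductase for polyunsaturated fatty acids, rose from 231, 209 and 279 to 594, 550.5 and 524 CPM, by 1.21 ± 0.11. Eci1, an enoyl-CoA isomerase, rose from 124, 115 and 136 to 261, 244 and 229 CPM, by 0.96 ± 0.084, while Eci2, a related isomerase, was at 163, 167 and 171 and 159, 162 and 147 CPM (adjusted p = 0.19). The isomerase genes thus differed in whether they passed the threshold, and that difference was not tested. Etfa, a subunit of the electron transfer flavoprotein, rose from 348, 360.2 and 390.3 to 841, 826 and 723 CPM, by 1.11 ± 0.085. Etfb, the other subunit, rose from 229, 220.3 and 277 to 565, 562 and 478 CPM, by 1.13 ± 0.11. Etfdh, which passes the electrons on to ubiquinone, rose from 577, 536 and 662 to 972, 926 and 819.8 CPM, by 0.61 ± 0.10.

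The genes of ketone use showed the largest increases. Bdh1, the mitochondrial 3-hydroxybutyrate dehydrogenase, rose from 2.53, 2.63 and 3.54 CPM to 127, 204 and 147 CPM, a 54.5-fold change (log2 fold change 5.77 ± 0.24). Oxct1, the CoA transferase needed to oxidise ketone bodies, rose from 275, 284 and 435 to 2076, 2171 and 1850.1 CPM, by 2.61 ± 0.19. Replicate 3 was the highest of the floxed hearts for both genes. In contrast, no thioesterase or uncoupling protein gene was called higher. Acot1, a cytosolic acyl-CoA thioesterase, fell from 58.04, 51.96 and 49.5 to 9.94, 5.65 and 5.36 CPM, a log2 fold change of -2.95 ± 0.20, and Acot2, its mitochondrial paralog, fell from 122, 116 and 132 to 89.1, 73.3 and 61.2 CPM, by a log2 fold change of -0.73 ± 0.13. Acot1 and Acot2 have near-identical coding sequences, so the division of reads between them is uncertain. Ucp2, a mitochondrial carrier of the uncoupling protein family, fell from 145, 121 and 126 to 102, 72.1 and 76.5 CPM, by a log2 fold change of -0.65 ± 0.14. Ucp3, its muscle-rich relative, ranged widely within both groups, at 50.01, 40.1 and 26.2 and 42.5, 20.9 and 40.4 CPM (adjusted p = 0.666).

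Among the regulators, 5 of 7 were higher in the adult and none was called lower. Ppara, the nuclear receptor that fatty acids activate, rose from 62.5, 46.2 and 94.4 to 235, 265 and 199.99 CPM, by 1.78 ± 0.25. Ppard, the related receptor, rose from 17.9, 18.6 and 20.3 to 39.9, 47.3 and 41.7 CPM, by 1.18 ± 0.093. Esrra, an orphan receptor that acts with the PGC-1 coactivators, rose from 69.7, 66.2 and 75.9 to 134, 130.5 and 119 CPM, by 0.85 ± 0.077. Its relative Esrrb rose from 10.8, 11.2 and 17.5 to 37.8, 49.9 and 45.8 CPM, by 1.75 ± 0.20, and Esrrg rose from 80.3, 78.7 and 79.5 to 123, 115 and 103 CPM, by 0.51 ± 0.073. The coactivator genes were not called. Ppargc1a was at 216, 187 and 258 and 277, 306 and 192 CPM (adjusted p = 0.31), and Ppargc1b was at 35.5, 34.9 and 52.3 and 33.2, 31.5 and 40.3 CPM (adjusted p = 0.288).

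**Figure D2:**
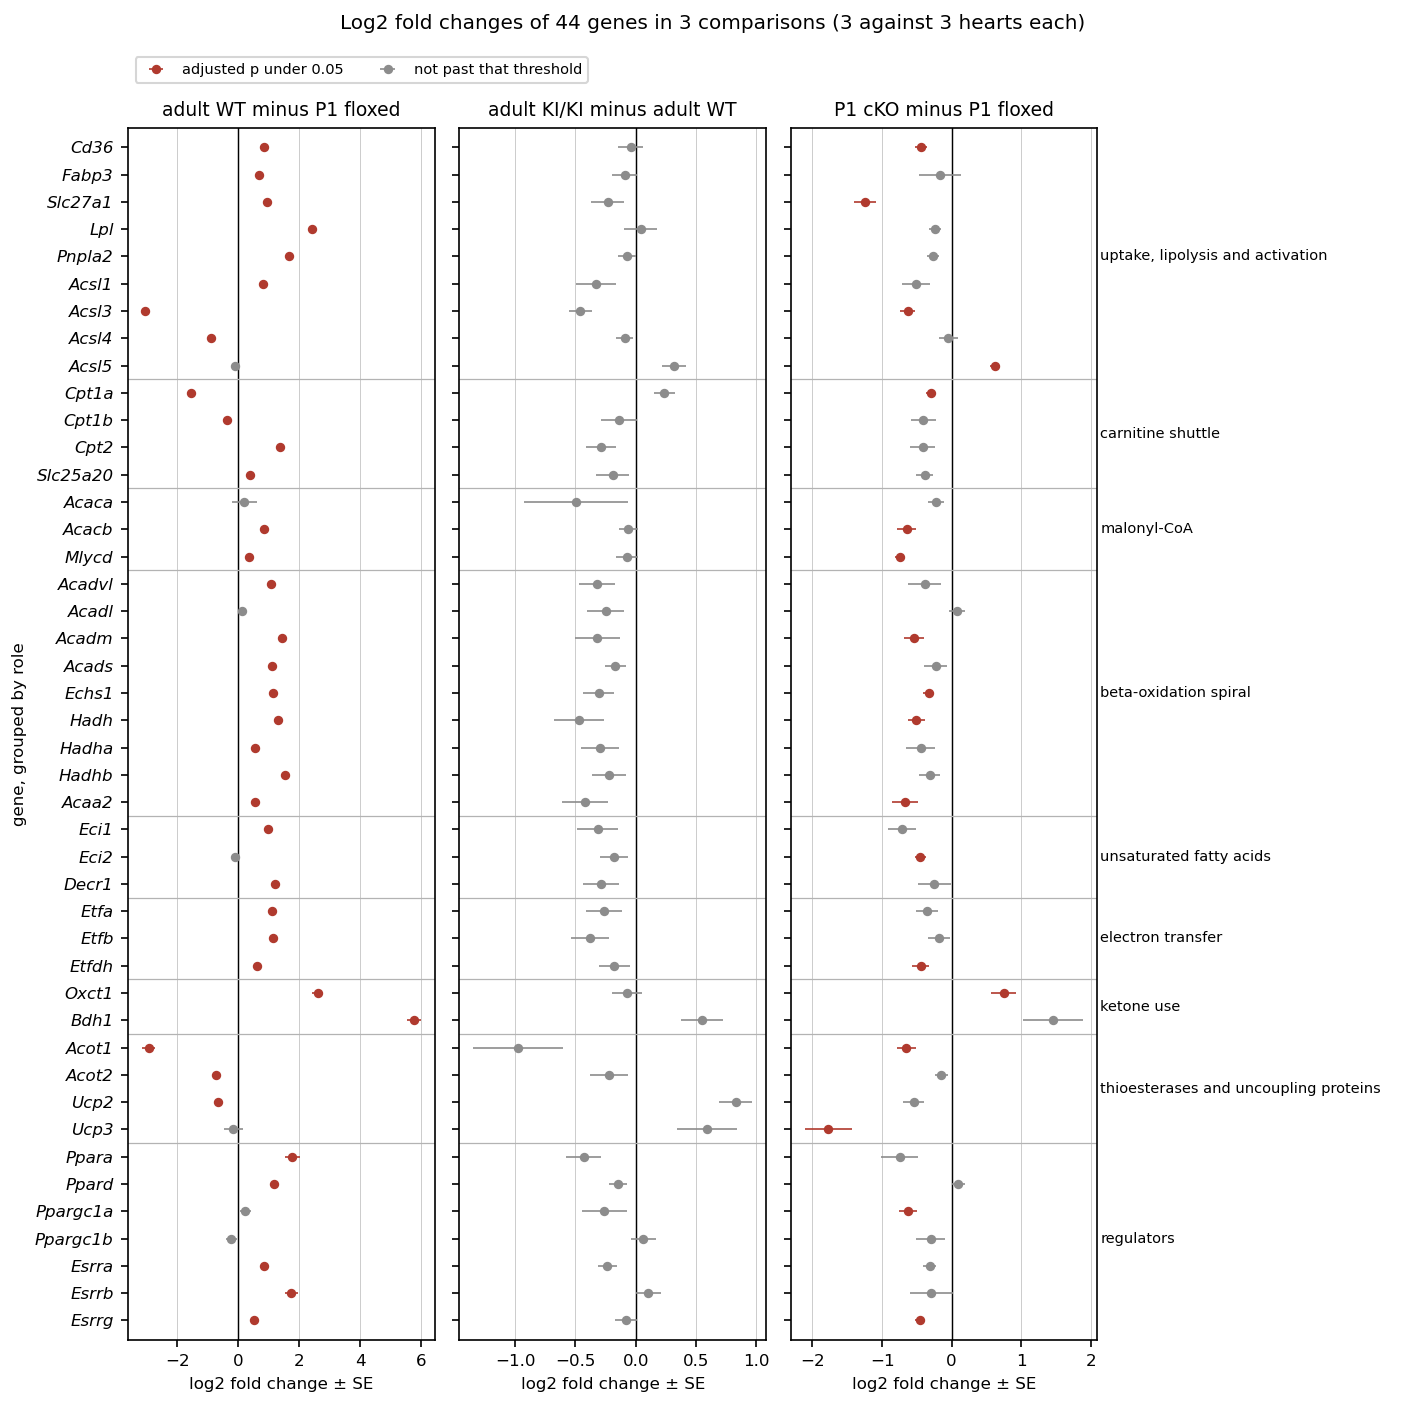
Log2 fold change with its standard error for each of the 44 genes in the 3 comparisons, with genes past an adjusted p of 0.05 in red and the others in grey, and a different x range in each panel. The left panel holds 37 red points, the middle panel none and the right panel 18, of which 16 lie below 0.

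The next comparison asked how these genes differed in newborn hearts after deletion of Lemd2 in cardiomyocytes. The cKO hearts carried Cre and the floxed hearts did not, so Cre and loss of Lemd2 cannot be told apart. In cKO hearts 16 of the 44 genes were lower than in floxed hearts and 2 were higher at an adjusted p under 0.05, against 7.57% of 15317 genes lower and 9.32% higher. The log2 fold change was below 0 for 39 of the 44 members and for 50.4% of all genes, with a median of -0.39 over the members and -0.0043 over all genes. Groups did not overlap with lower cKO values for 22 members and with higher values for 2, against 19.1% and 19.9% of all genes. With a fold change above 2 also required, 2 members were lower and 0 higher, against 1.78% and 2.85% of all genes. Under upper quartile scaling the calls over all genes were split differently, with 44.9% higher in place of 55.2%, while 19 members were lower and 2 higher. The 18 calls depended on single libraries: 1 lower and 0 higher remained without floxed replicate 1, 5 and 1 without floxed replicate 2, 9 and 2 without floxed replicate 3, 10 and 2 without cKO replicate 4, 3 and 1 without cKO replicate 5, and 26 and 3 without cKO replicate 6. Calls over all genes moved as well, from 2587 to 160, 668, 1778, 1885, 542 and 3463 in these fits, in the same order. The shifts in member calls are therefore not particular to the 18 genes. Over these 6 fits the median of the members stayed between -0.55 and -0.27, and each of the 18 genes kept its sign.

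Of the 9 genes of uptake, lipolysis and activation, 3 were lower, 1 was higher and 5 were not called. Slc27a1 fell from 95.7, 84.9 and 90.8 CPM in the floxed hearts to 29.5, 37.4 and 47.8 CPM in the cKO hearts, a log2 fold change of -1.25 ± 0.16 (adjusted p = 0.00688), and the highest cKO heart was below the lowest floxed heart. Without floxed replicate 1 the adjusted p of Slc27a1 was 0.0512. Cd36 fell from 1472, 1385 and 1411 to 987, 1011 and 1159.98 CPM (log2 fold change -0.44 ± 0.088, adjusted p = 0.0212). Acsl3 fell from 118, 104 and 110.5 to 60.04, 80.9 and 73.6 CPM (-0.63 ± 0.11, adjusted p = 0.0152), whereas Acsl5 rose from 34.2, 33.5 and 36.7 to 51.02, 53.2 and 56.9 CPM (0.62 ± 0.075, adjusted p = 0.00665). The synthetase genes thus changed in opposite directions. Acsl1 was at 499, 676 and 888 CPM against 953, 860.5 and 1114 CPM, the groups overlapped, and it did not pass the threshold (adjusted p = 0.114). Its share of the counts of the 4 synthetase genes was 77.5 ± 4.94% in cKO and 81.9 ± 1.63% in floxed hearts (exact permutation p = 0.3). Lpl and Pnpla2 had non-overlapping, lower values but missed the threshold, with log2 fold changes of -0.24 ± 0.092 and -0.26 ± 0.088. Fabp3 spread widely, at 455, 589 and 1093 CPM in the cKO hearts, so that replicate 6 exceeded every floxed heart.

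The genes that set the malonyl-CoA level were both lower. Mlycd fell from 77.6, 73.2 and 69.7 to 41.9, 44.98 and 45.3 CPM, a log2 fold change of -0.74 ± 0.078 (adjusted p = 0.00542), and it was the gene that stayed called in all 6 fits without a library. Acacb fell from 360.5, 292 and 383 to 184, 227 and 251 CPM (-0.65 ± 0.14, adjusted p = 0.0233). Their products act on opposite sides of the same metabolite. Acaca, at 18.5, 24.1 and 20.4 CPM in the cKO hearts, was not called, and the share of Acacb in the counts of both carboxylase genes was 91.2 ± 1.08% in cKO against 93.3 ± 0.557% in floxed hearts (exact permutation p = 0.1). In the carnitine shuttle, Cpt1a fell from 267, 262 and 257 to 208, 228 and 207 CPM (-0.29 ± 0.074, adjusted p = 0.0392), a call that no fit with a library left out retained (adjusted p between 0.0538 and 0.155). Cpt2 was at 64.1, 88.2 and 101 CPM and Slc25a20 at 98.6, 119 and 145 CPM, with log2 fold changes of -0.42 ± 0.18 and -0.39 ± 0.12 that did not pass the threshold.

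Of the 15 genes of the spiral, of unsaturated fatty acids and of electron transfer, 6 were lower and none higher. Acaa2 fell from 616, 587 and 647 to 300.1, 349.96 and 518 CPM (-0.67 ± 0.18, adjusted p = 0.0474). Acadm fell from 590.5, 589 and 608 to 337, 379.6 and 515 CPM (-0.54 ± 0.14, adjusted p = 0.0434). Hadh fell from 419.7, 420.1 and 432 to 244, 296 and 359 CPM (-0.51 ± 0.13, adjusted p = 0.0369). In all 3 genes the cKO hearts were ordered alike, with replicate 4 lowest and replicate 6 nearest to the floxed hearts. Echs1 fell from 191, 195 and 185 to 137, 157 and 162 CPM (-0.33 ± 0.078, adjusted p = 0.0328). Eci2 fell from 163, 167 and 171 to 111, 122 and 134 CPM (-0.45 ± 0.077, adjusted p = 0.0138). Etfdh fell from 577, 536 and 662 to 374, 434 and 499 CPM (-0.45 ± 0.12, adjusted p = 0.0455). The other 9 of these genes, among them Acadvl, Hadha and Hadhb, had log2 fold changes from -0.71 for Eci1 to 0.079 for Acadl and did not pass the threshold. Acadm, Hadh, Acaa2, Echs1 and Etfdh were called without cKO replicate 6 and in no other fit with a library left out.

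Of the 2 genes of ketone use, 1 was called. Oxct1 rose from 275, 284 and 435 to 492, 596 and 581 CPM (0.75 ± 0.18, adjusted p = 0.0337), and every cKO heart was above every floxed heart, although the call was lost without floxed replicate 1, floxed replicate 2 or cKO replicate 5. Bdh1 was at 2.53, 2.63 and 3.54 CPM in the floxed and 9.28, 11.04 and 3.33 CPM in the cKO hearts (1.46 ± 0.43, adjusted p = 0.0612), with cKO replicate 6 within the floxed range. Ucp3 had the largest decrease of the 44 genes, from 50.01, 40.1 and 26.2 to 12.6, 6.65 and 14.9 CPM (-1.77 ± 0.34, adjusted p = 0.0187). Ucp2, its neighbour on chromosome 7 (Ucp3 at chr7:100472990-100486432 and Ucp2 at chr7:100493337-100502020), was at 75.5, 81.5 and 113 CPM against 145, 121 and 126 CPM and just missed the threshold (-0.54 ± 0.15, adjusted p = 0.0518). Acot1 fell from 58.04, 51.96 and 49.5 to 27.9, 33.9 and 40.3 CPM (-0.65 ± 0.13, adjusted p = 0.0224), while its paralog Acot2 was at 96.1, 119 and 119.6 CPM and was not called.

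Of the regulators, Ppargc1a and Esrrg were lower. Ppargc1a, the inducible coactivator of mitochondrial genes, fell from 216, 187 and 258 to 154, 135 and 137 CPM (-0.63 ± 0.13, adjusted p = 0.0222). Esrrg fell from 80.3, 78.7 and 79.5 to 57.3, 56.05 and 60.6 CPM (-0.46 ± 0.067, adjusted p = 0.0095), with little spread in either group. Esrra was at 50.3, 55.96 and 64.2 CPM with groups that did not overlap and did not pass the threshold (-0.32 ± 0.097, adjusted p = 0.0657). Ppara, at 35.2, 34.9 and 51.2 CPM in cKO and 62.5, 46.2 and 94.4 CPM in floxed hearts, overlapped between groups (-0.75 ± 0.27, adjusted p = 0.0956). Ppard, Ppargc1b and Esrrb were not called.

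Levels of cell type markers also differed in these hearts. Of the 8 cardiomyocyte markers Tnni3, Ryr2 and Ttn were lower and none was higher in cKO hearts, against the 7.57% and 9.32% of all genes, while Actn2 and Myh7 had log2 fold changes of 0.32 ± 0.14 and 0.24 ± 0.26 and were not called. The median log2 ratio of the 8 markers to the floxed mean was -0.47, -0.26 and -0.29 in replicates 4, 5 and 6. The median over the 15 spiral, unsaturated fatty acid and electron transfer genes was -0.66, -0.46 and -0.026. Replicate 6 thus lay near the floxed hearts for these 15 genes, with 8 of them below the floxed mean, but not for the cardiomyocyte markers. The 5 proliferation markers were summed to 409, 502 and 1008 CPM in cKO replicates 4 to 6 and to 259, 266 and 369 CPM in the floxed hearts, so that every cKO heart was above every floxed heart. The same held for the sums of 6 fibroblast markers, at 4537, 4558 and 5735.5 CPM against 3876 to 4417 CPM. It also held for the sums of 6 endothelial markers, at 1268 to 1563 CPM against 1089 to 1175 CPM. The single markers were mixed. Of the fibroblast markers 3 had a log2 fold change above 0 and 3 below, with a median of 0.038. Of the endothelial markers 4 lay above 0 and 2 below, with a median of 0.18. Macrophage markers were summed to 185, 117 and 84.8 CPM in replicates 4 to 6 and to 80.5 to 94.6 CPM in the floxed hearts. Lemd2 was lowest in replicate 4, the heart with low Y-linked genes, and with the Y-linked level as a covariate 8 members were lower and 2 higher. That covariate rests mainly on replicate 4, the only heart in which the Y-linked genes were low. The part of cell composition, sex and proliferation in the differences was not tested.

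**Figure D3:**
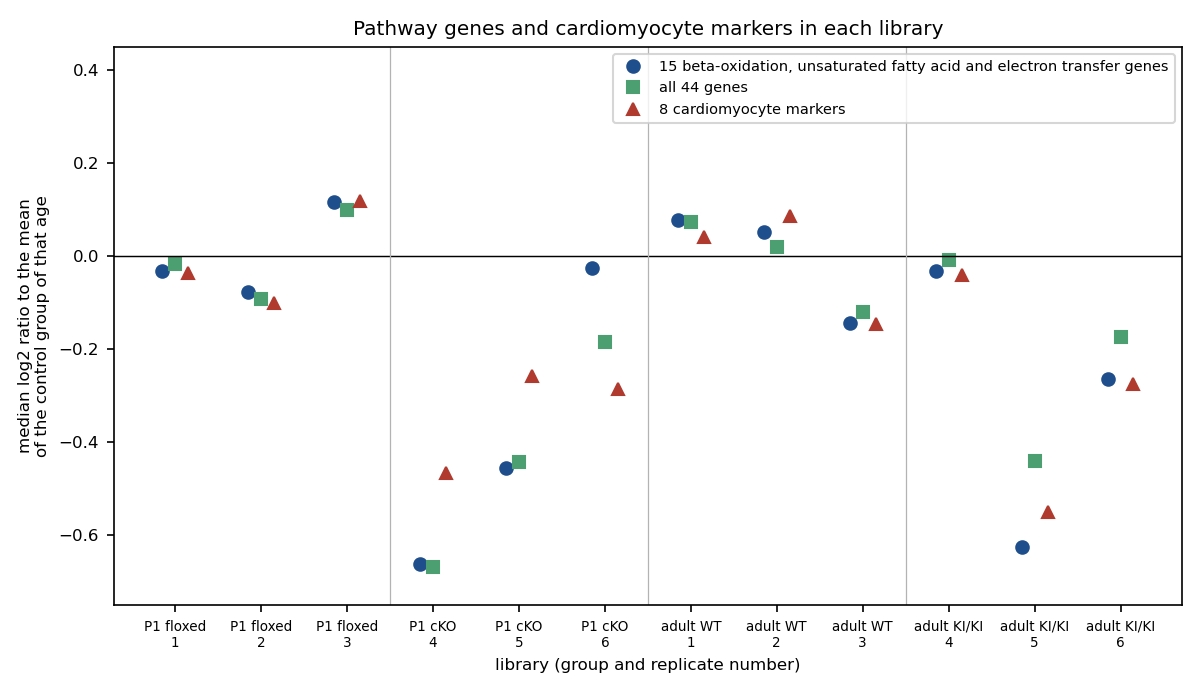
Median log2 ratio to the mean of the control group of the same age in each heart, for all 44 genes, for the 15 genes of beta-oxidation, unsaturated fatty acids and electron transfer, and for 8 cardiomyocyte markers. In KI/KI replicate 5 all 3 sets lay below -0.44, and in cKO replicate 6 the 15 genes lay at -0.026 while the markers lay at -0.29.

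The knock-in comparison asked the same of the adult heart with mutant Lemd2. None of the 44 genes was called in KI/KI against WT hearts by edgeR's quasi-likelihood test, and none of 14592 genes was (0% higher and 0% lower). The smallest adjusted p was 0.101 over all genes and 0.181 over the members. At an unadjusted p under 0.05, 5 members were higher and 6 lower, against 8.92% and 7.28% of all genes. DESeq2 called 518 genes over all, 59.1% of them higher. Among these were 2 members, Ucp2 as higher (adjusted p = 3.13e-05) and Acsl3 as lower (adjusted p = 0.0149). With limma-voom no gene was called. Groups did not overlap for 5 members with higher and 3 with lower KI/KI values, against 11.4% and 10.4% of all genes. The log2 fold change was nevertheless below 0 for 36 of the 44 members, against 49.5% of all genes, with a median of -0.21 over the members and 0.0023 over all genes.

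The 10 members with the smallest p lay on both sides. Ucp2 was at 150.5, 135 and 159 CPM in the KI/KI hearts and 102, 72.1 and 76.5 CPM in the WT hearts, a log2 fold change of 0.83 ± 0.14 (adjusted p = 0.181), with no overlap. Ucp3 was at 51.2, 53.5 and 51.5 CPM against 42.5, 20.9 and 40.4 CPM (0.59 ± 0.25, adjusted p = 0.308), where the KI/KI hearts were close together and WT replicate 2 was low. Bdh1 was at 229, 215 and 253 CPM against 127, 204 and 147 CPM (0.55 ± 0.17, adjusted p = 0.25). These 3 genes had the largest positive differences among the members. Acsl5 was at 35.3, 45.1 and 40.4 CPM against 32.4, 31.5 and 33.4 CPM (0.32 ± 0.098, adjusted p = 0.245), and Cpt1a was at 108, 113 and 97.7 CPM against 92.9, 82.4 and 95.6 CPM (0.24 ± 0.086, adjusted p = 0.275). All 5 of these genes had every KI/KI heart above every WT heart. Acsl3 was at 9.35, 8.78 and 10.5 CPM against 12.9, 12.9 and 13.6 CPM (-0.46 ± 0.095, adjusted p = 0.193), and Esrra was at 114, 97.1 and 113 CPM against 134, 130.5 and 119 CPM (-0.23 ± 0.079, adjusted p = 0.264). Both had every KI/KI heart below every WT heart. Ppara was at 203, 146 and 168 CPM against 235, 265 and 199.99 CPM (-0.43 ± 0.14, adjusted p = 0.255), and Etfb was at 498, 322 and 409.8 CPM against 565, 562 and 478 CPM (-0.38 ± 0.16, adjusted p = 0.307). Acot1 was at 5.54, 2.49 and 2.67 CPM against 9.94, 5.65 and 5.36 CPM (-0.97 ± 0.37, adjusted p = 0.287). In the last 3 genes the groups overlapped.

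All 15 genes of the spiral, of unsaturated fatty acids and of electron transfer had a log2 fold change below 0 in the knock-in, from -0.47 for Hadh to -0.17 for Acads, and none was called. The decrease was uneven between hearts. Their median log2 ratio to the WT mean was -0.031, -0.63 and -0.26 in KI/KI replicates 4, 5 and 6. The 8 cardiomyocyte markers had medians of -0.04, -0.55 and -0.27 in the same hearts. The 6 fibroblast markers were summed to 1954, 3560 and 2284 CPM, against 1624 to 1975 CPM in the WT hearts. Replicate 5 was thus lowest for the oxidation genes and the cardiomyocyte markers and highest for the fibroblast markers. In Acadm, for example, replicate 5 was at 961.5 CPM, while replicates 4 and 6 were at 1620 and 1331 CPM and the WT hearts between 1471 and 1729 CPM. Without replicate 5 the median over the 44 members was -0.10, without replicate 4 it was -0.30 and without WT replicate 3 it was -0.25. The part of cell composition in these values was not tested.

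Whether the 2 mutants differed was tested by the interaction contrast, the log2 fold change of cKO against floxed minus that of KI/KI against WT, in one fit of all 12 libraries. In this contrast 5 of the 44 genes were called lower and 0 higher, against 1.27% and 1.17% of 15729 genes. Ucp3 had a difference of -2.36 ± 0.46 (adjusted p = 0.0309) and Ucp2 of -1.36 ± 0.23 (adjusted p = 0.0192). Both uncoupling protein genes had lower values in all cKO hearts than in all floxed hearts and higher values in all KI/KI hearts than in all WT hearts. The difference was -1.01 ± 0.23 for Slc27a1 (adjusted p = 0.0486), -0.66 ± 0.12 for Mlycd (adjusted p = 0.0287) and -0.53 ± 0.11 for Cpt1a (adjusted p = 0.039). For Slc27a1 and Mlycd the KI/KI values overlapped the WT values, and for Cpt1a every KI/KI heart was above every WT heart without a call in that comparison. The call of Slc27a1 was lost with RLE size factors (adjusted p = 0.0525) and with limma-voom (adjusted p = 0.0503). Oxct1, Acacb, Esrrg, Cd36 and Acsl5 came next and were not called, with differences of 0.82 ± 0.24, -0.58 ± 0.17, -0.37 ± 0.12, -0.39 ± 0.14 and 0.31 ± 0.12. No gene of the spiral, of unsaturated fatty acids or of electron transfer was called, and the medians of the 15 log2 ratios in the single hearts spanned -0.66 to -0.026 in the cKO and -0.63 to -0.031 in the KI/KI group. The 5 calls also depended on single hearts: none remained without WT replicate 2, KI/KI replicate 6, floxed replicate 1 or cKO replicate 5, 1 remained without KI/KI replicate 4 or floxed replicate 2, 2 without WT replicate 1 or 3, and 3 without cKO replicate 4. Of the 5 calls, 4 remained without KI/KI replicate 5 or floxed replicate 3, and all 5 without cKO replicate 6. Calls over all genes fell as well, from 383 to 60, 66, 51 and 64 in the fits that kept none, in the order given. Age, genotype, line and the presence of Cre differ together between the models and cannot be told apart.

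**Figure D4:**
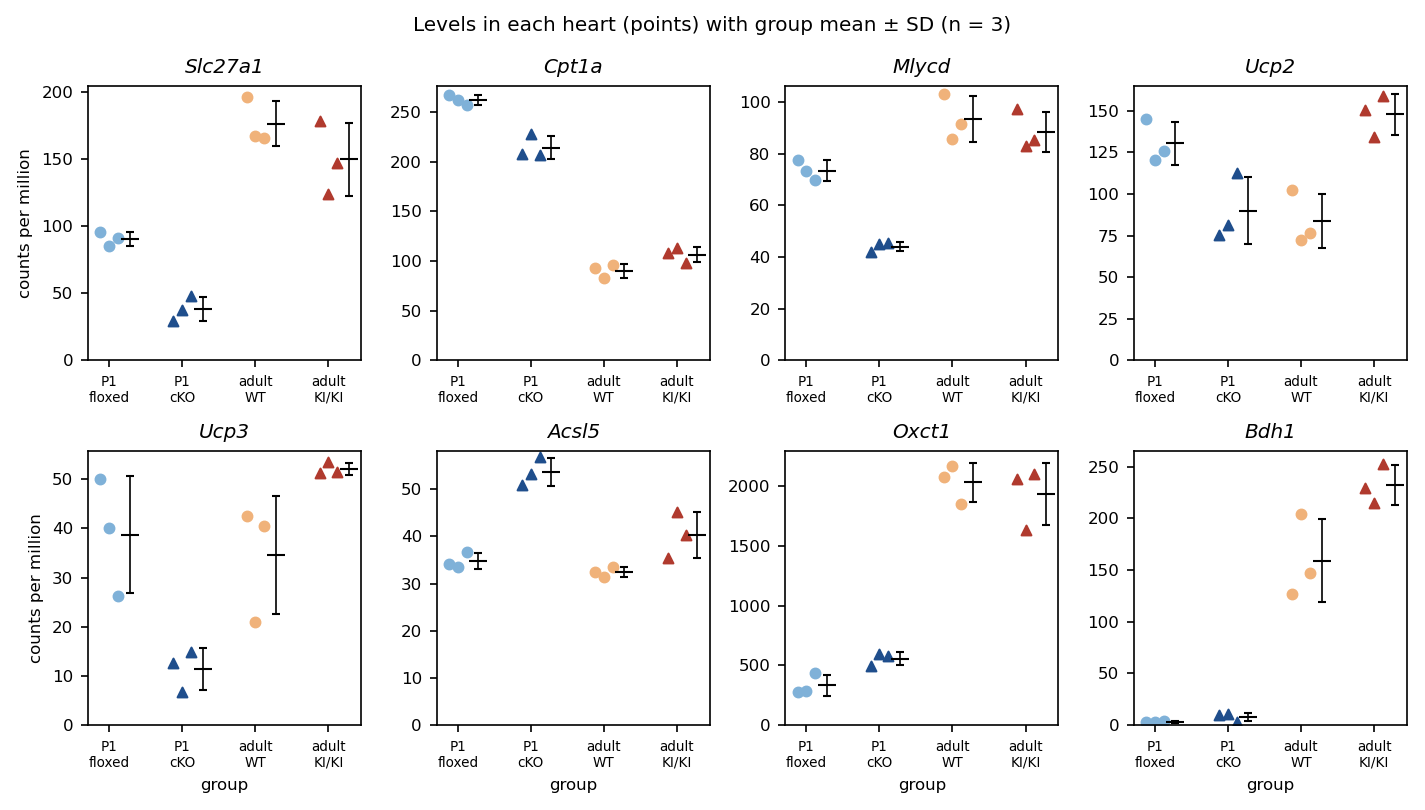
Level in CPM in each heart, with the group mean and SD (n = 3) beside the points, for the 5 genes called in the interaction contrast and for Acsl5, Oxct1 and Bdh1. Ucp2 and Ucp3 lay lower in cKO than in floxed hearts and higher in KI/KI than in WT hearts.

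A further list of 42 genes of fatty acid and ketone metabolism outside the 44 was examined in the same fits. In adult WT against floxed hearts 27 of the 42 were higher and 6 lower, against the 31.8% and 33.4% of all genes, and their median was 0.42 on the log2 scale. Rxrg, one of the genes for heterodimer partners of the PPAR receptors, rose from 2.05, 2.33 and 2.45 to 74.5, 68.8 and 58.8 CPM. Acsl6, a further synthetase gene, rose from 0.361, 0.761 and 0.576 to 24.8, 28.7 and 23.01 CPM. Dgat2, which makes triglyceride, rose from 65.4, 62.1 and 59.6 to 489.8, 555 and 432 CPM, and Acss1, the mitochondrial acetyl-CoA synthetase, rose from 39.1, 42.3 and 53.5 to 525, 568 and 472 CPM. These 4 genes had log2 fold changes of 4.87 ± 0.13, 5.47 ± 0.20, 2.97 ± 0.10 and 3.53 ± 0.14. Other genes named by the rule were Acad11 (2.54 ± 0.098), Ech1 (2.14 ± 0.091), Abhd5 (1.18 ± 0.082), Abcd2 (2.22 ± 0.16) and Vldlr (1.57 ± 0.12). Among the genes that fell by more than 2-fold, and named after their values were seen, were Angptl4, an inhibitor of Lpl (-3.93 ± 0.45), Slc27a6 (-2.57 ± 0.35) and Fabp5 (-2.18 ± 0.23).

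In cKO against floxed hearts 9 of the 42 further genes were lower and 0 higher, against 7.57% and 9.32% of all genes. Their median was -0.25 on the log2 scale. Dgat2 fell from 65.4, 62.1 and 59.6 to 18.5, 22.2 and 28.9 CPM (-1.44 ± 0.15, adjusted p = 0.00535), and Abcd2, a peroxisomal acyl-CoA transporter, fell from 5.51, 4.78 and 5.33 to 2.26, 2.02 and 2.11 CPM (-1.29 ± 0.16, adjusted p = 0.00674). In KI/KI against WT hearts none of the 42 was called, and the median was -0.078. In the interaction contrast 2 were called, against 1.27% of all genes lower and 1.17% higher, both lower and named after their values were seen: Ehhadh, a peroxisomal beta-oxidation enzyme (-0.75 ± 0.15, adjusted p = 0.0327), and Slc22a5, the plasma membrane carnitine transporter (-0.69 ± 0.14, adjusted p = 0.0334). Slc22a5 was at 28.8, 27.3 and 25.3 CPM in floxed and 14.3, 15.2 and 15.2 CPM in cKO hearts.

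The promoters were searched because PPAR and ERR receptors bind elements built on the core AGGTCA. RefSeq windows from 250 bases before to 50 bases after a transcript start (GRCm38.p6) were at hand for 39 of the 44 genes. That start can lie inside the annotated gene. The Cd36 and Cpt1a windows printed below lie within the gene spans chr5:17781690-17888801 and chr19:3322334-3385733. None of the 39 held the DR1 element, that is AGGTCA repeated in tandem with a spacer of 1 base, against 0.0481% of 27025 promoters. None held the ERR element TCAAGGTCA, against 0.466%. Only exact matches were searched, and both elements are so rare that 0 of 39 cannot set the members apart from other genes. The core AGGTCA alone, searched on both strands and added after the first results were seen, was found in 7 of 39 (17.9%), close to the 18.1% of all promoters. The following windows are those of genes that fell in cKO hearts and held the core before the start, written 5′ to 3′ on the strand of the gene, with the core or its reverse complement in capitals.
Ucp3, distal core, chr7:100472817-100472872: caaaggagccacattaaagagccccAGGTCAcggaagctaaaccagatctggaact
Ucp3, proximal core, chr7:100472922-100472977: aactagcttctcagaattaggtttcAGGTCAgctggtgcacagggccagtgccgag
Cpt1a, chr19:3323182-3323237: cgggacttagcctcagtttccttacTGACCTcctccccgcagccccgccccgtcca
Echs1, chr7:140116474-140116529: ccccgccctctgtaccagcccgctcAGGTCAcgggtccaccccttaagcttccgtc
Acadm, chr3:153944862-153944893: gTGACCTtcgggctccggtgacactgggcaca
Cd36, chr5:17836094-17836146: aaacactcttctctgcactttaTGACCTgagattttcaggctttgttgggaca
Ucp3 and Cpt1a lie on the forward strand, and the other 3 genes lie on the reverse strand. A match is a description of the letters and not a binding site, and binding was not measured here.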

How the data were processed

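Whole hearts of 12 mice were profiled, and the groups were taken from the sample labels. Per the labels and the methods of the study, the authors made poly(A) libraries, sequenced them single-end, used Trim Galore for trimming and STAR 2.7.2b for alignment to mm10, and deposited whole-number counts per gene from HTSeq, not normalized. Bowtie2 2.3.4.3, SAMtools 1.9 and DESeq2 are also listed. The strand setting of the counting was not given in the sources used here, so overlapping genes may share or lose reads. No column was left unused.

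The counts were tested in R 4.3.3 with edgeR 4.0.16 (TMM scaling, filterByExpr with a minimum count of 10, robust quasi-likelihood fit). Each comparison was fitted on its own 6 libraries, and the interaction contrast on all 12. P-values were adjusted by Benjamini-Hochberg over all genes tested, and 0.05 was the threshold. P-values measure the spread between 3 mice per group. Levels are CPM, and levels per kilobase use the principal transcript of the GENCODE vM21 annotation (GRCm38, the assembly of mm10), from which coordinates and overlaps with other genes were also taken. Shares were compared by exact permutation over 20 splits of 6 hearts. No libraries within a group held identical values.

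The members and the further lists were chosen with earlier results of these data known. Values per library are given for members called with groups that do not overlap and, where fewer than 10 were called, for the 10 with the smallest unadjusted p. Of the further genes, those past 0.05 with a fold change above 2 are named, at most 10 a comparison by smallest p, except that some are not reported here. Alternatives were DESeq2 1.42.0, limma-voom (limma 3.58.1), RLE and upper quartile scaling, other filters, all libraries in one fit, a non-robust fit, a replicate block, a Y-linked covariate and each library left out. An older dispersion setting of edgeR was added after the data were seen. The scripts were tested on simulated data. Marker lists not or only partly described in the report (endothelial, mural, brown adipocyte, skeletal muscle and erythroid cells) are summed in the closing section.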

Additional observations from a re-analysis of the deposited data

Results flagged for a closer look

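A total of 5 genes were singled out because their log2 fold change differed between the models in the interaction contrast (cKO against floxed minus KI/KI against WT, edgeR quasi-likelihood test, adjusted over 15729 genes, 3 hearts a group). The difference was -2.36 for Ucp3, -1.36 for Ucp2, -1.01 for Slc27a1, -0.66 for Mlycd and -0.53 for Cpt1a. Each of these genes had lower values in all 3 cKO hearts than in all 3 floxed hearts. Ucp2, Ucp3 and Cpt1a had higher values in all 3 KI/KI hearts than in all 3 WT hearts, whereas Slc27a1 and Mlycd overlapped there. Groups of 3 hearts are too small for a test of single outlying hearts.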

How the results depend on the processing

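In adult WT against floxed hearts no processing setting moved the member counts of 30 higher and 7 lower past 1.5 times, and only the requirement of a fold change above 2 did (17 and 3). The knock-in gave 0 and 0 calls in each alternative except DESeq2, which called 1 higher and 1 lower. In cKO hearts the counts of 2 higher and 16 lower moved to 0 and 2 with a fold change above 2 and to 8 lower with the Y-linked covariate, which lost Cd36, Cpt1a, Acacb, Acadm, Echs1, Hadh, Acaa2 and Etfdh. The fit of all libraries lost Acadm, Echs1, Hadh and Acot1 and gained Pnpla2, Eci1, Bdh1, Ucp2, Ppara and Esrra, and no filter on low counts lost Cpt1a, Acaa2 and Etfdh. With a library left out the member counts in cKO hearts ranged from 0 to 3 higher and from 1 to 26 lower. Over all genes those fits called from 160 to 3463. Upper quartile scaling changed the share of all cKO calls that were higher from 55.2% to 44.9%. DESeq2 called 3758 genes in place of 2587 in cKO hearts and 518 in place of 0 in KI/KI hearts. One fit of all libraries called 4113 and 48, and the Y-linked covariate 1647 and 1. The interaction contrast gave 0 higher and 5 lower. DESeq2 gave 1 higher, RLE size factors and limma-voom each lost Slc27a1, and fits with a library left out gave 0 to 1 higher and 0 to 6 lower. Over all genes the fits with a library left out called from 51 to 924 in place of 383. The share of Cpt1b, adult WT minus floxed, was 5.13 percentage points and 7.14 with counts per length. No member called in a comparison changed sign in it under any setting run. Among members not called, 2 changed sign in the age comparison, 7 in the knock-in, 3 in cKO hearts and 17 in the interaction contrast. Each did so with a library left out, and Fabp3 in cKO hearts also with the Y-linked covariate and Echs1 in the interaction contrast also with DESeq2 and RLE size factors. Without WT replicate 3, Acaca went from 0.20 to -0.49 in the age comparison, where it was then called, and from -0.50 to 0.22 in the knock-in.

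The titles number the adult WT and floxed hearts 1 to 3 and the KI/KI and cKO hearts 4 to 6. Deviations of same-numbered hearts correlated at -0.15, -0.19 and -0.42 over genes for WT with floxed and at 0.12, 0.21 and 0.030 for KI/KI with cKO, so the numbers were not taken to pair the hearts. With a replicate block the age comparison kept 36 of 37 member calls, losing Cpt1b, and the interaction contrast called 0 lower in place of 5. No paired analysis was possible for KI/KI against WT or cKO against floxed because these groups share no number. Leaving out mitochondrially encoded genes was not run, since no symbol used here starts with mt-.

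Depth limits little here, since every member had over 2 CPM in each heart against a floor of 0.0965 CPM for 3 counts in the shallowest library. With 3 hearts a group, the spread between hearts limits the calls. Summed marker levels in floxed and cKO hearts were 1089 to 1175 and 1268 to 1563 CPM for endothelial cells, 1314 to 1699 and 1698 to 2689 for mural cells, 15.6 to 21.9 and 14.0 to 24.8 for brown adipocytes, 2.48 to 4.43 and 1.85 to 7.01 for skeletal muscle and 19.5 to 20.3 and 17.6 to 27.1 for erythroid cells. In WT and KI/KI hearts they were 1119 to 1268 and 1189 to 1384, 677 to 709.7 and 700.6 to 827.6, 22.7 to 37.5 and 23.3 to 31.8, 1.09 to 8.49 and 1.46 to 2.06, and 22.9 to 30.4 and 18.5 to 25.8 CPM.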
